A study of Mus musculus with 6 samples.

Results

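The genes described here are the enzyme families of foreign-compound (xenobiotic) metabolism, chosen by symbol and level from read counts of sorted mouse organoid cells. A gene was a member when its symbol began with Cyp, Ugt1, Ugt2, Gst, Sult, Aldh, Akr1 or Ces followed by a digit or family letter and its mean was at least 1 CPM (counts scaled to a library total of 1000000) over the 6 libraries. Of 56884 genes in the files, 266 bore such a symbol and 107 were members. The other 159 lay under the line, 63 of them with 0 counts in every library. Phase 1 enzymes made up 69 members: 20 of 88 genes of cytochrome P450 (CYP) families 1 to 3, 8 of 29 of CYP family 4, 5 of 20 of other CYP families, 16 of 21 aldehyde dehydrogenases (ALDH), 9 of 16 aldo-keto reductases of family 1 (AKR1) and 11 of 20 carboxylesterases (CES). Phase 2 enzymes made up 38: 9 of 19 UDP-glucuronosyltransferases (UGT), 24 of 26 glutathione S-transferases (GST) and 5 of 27 sulfotransferases (SULT). Of the members, 105 were annotated as protein-coding, and Gstp-ps and Gstm2-ps1 were processed pseudogenes.

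The libraries came from cells positive for Lgr5-GFP, a reporter of intestinal stem cells, sorted from small intestinal epithelial organoids. All organoids carried the alleles Villin-CreERT2 and Lgr5-EGFP-IRES-CreERT2 together with the floxed allele Ythdf2fl/fl, so the controls had the same genotype as the treated cultures. CreERT2 is a Cre recombinase that 4-hydroxytamoxifen (4-OHT) switches on, here driven by the villin promoter of the intestinal epithelium and by the Lgr5 locus of stem cells. Organoids received 0.5 µM 4-OHT or the vehicle ethanol (EtOH), and cells were sorted 4 or 6 days later. Day 6 has 2 libraries of each label and day 4 has 1 of each. The age and number of the mice were not given in the sources used here, and neither was whether replicates came from separate cultures, so p-values measure the spread between these libraries, which may be technical. No group without CreERT2 received 4-OHT, so the agent and recombination cannot be told apart.

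Library totals ran from 14345379 to 21461835 gene counts, at which 1 CPM is about 14.3 to 21.5 counts. Ythdf2, the floxed gene, stood at 81.7 and 76.3 CPM in the EtOH libraries of day 6 and at 208 and 199 CPM in those labelled 4-OHT, and at day 4 at 76.6 (EtOH) and 172 CPM (4-OHT). Its counts were thus higher under the 4-OHT label, opposite to a loss of transcript, so each direction given here is that of the libraries labelled 4-OHT. Levels of Lgr5, the gene of the sort, were 247, 346 and 371 CPM in the EtOH libraries and 209, 221 and 281 CPM in those labelled 4-OHT. The summed level of 4 immune markers was 4.34 to 8.06 CPM in the EtOH and 6.10 to 8.37 CPM in the 4-OHT libraries, mostly Cd68, with Ptprc and Cd3e at 0 in at least 1 library each. That of 5 mesenchymal markers was 4.13 to 12.5 CPM and 8.78 to 10.2 CPM, mostly Vim, with Col1a2, Pdgfra and Dcn at 0 in at least 1 library each.

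Phase 1 enzymes add or uncover a reactive group on a lipophilic compound, and phase 2 enzymes attach a polar group such as glucuronic acid, glutathione or sulfate to it. In the small intestine these enzymes are best known from absorptive enterocytes, where they meet dietary compounds and drugs before the blood does. Many members have endogenous substrates as well, among them retinoids, fatty acids, sterols and steroid hormones.

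More members were higher than lower in the libraries labelled 4-OHT at day 6. Their summed share of all gene counts was 0.950% and 0.872% in the EtOH libraries and 1.13% and 1.13% in the 4-OHT libraries at day 6, against 0.897% (EtOH) and 0.929% (4-OHT) at day 4. By edgeR's quasi-likelihood test, with p adjusted over all genes after Benjamini and Hochberg, 9 members were called (adjusted p under 0.05) at day 6, all 9 higher, where 2.51% of all 14066 genes tested were called, 2.27% as higher and 0.235% as lower. The 9 were Ces2b, Aldh3b1, Cyp3a13, Sult6b2, Cyp2e1, Ces2c, Gsta13, Cyp4f14 and Cyp4f16, and they made up 8.41% of the members. An unadjusted p under 0.05 was reached by 44 members, against 10.3% of all genes.

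The day 6 log2 fold change was above 0 for 79 members and below 0 for 28, with a median of 0.33 beside −0.01 over all genes tested. Both 4-OHT libraries of day 6 stood above both EtOH libraries for 52 members (48.6%) and below both for 11 (10.3%), where 19.4% and 19.7% of all genes at 1 CPM or more did so. The libraries labelled 4-OHT alone carried Ces2b, Cyp2d34, Cyp2d10 and Aldh1a3 past the membership line, with an EtOH mean under 1 CPM, and such genes had to be higher there. Without these 4, 8 of 103 members were called at day 6 and the median log2 fold change was 0.28. Both 4-OHT libraries then stood above both EtOH libraries for 48 (46.6%) and below both for 11 (10.7%), and 40 had an unadjusted p under 0.05. In bulk libraries of this kind, fewer cells of a type and less RNA per cell cannot be told apart.

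**Figure D1:**
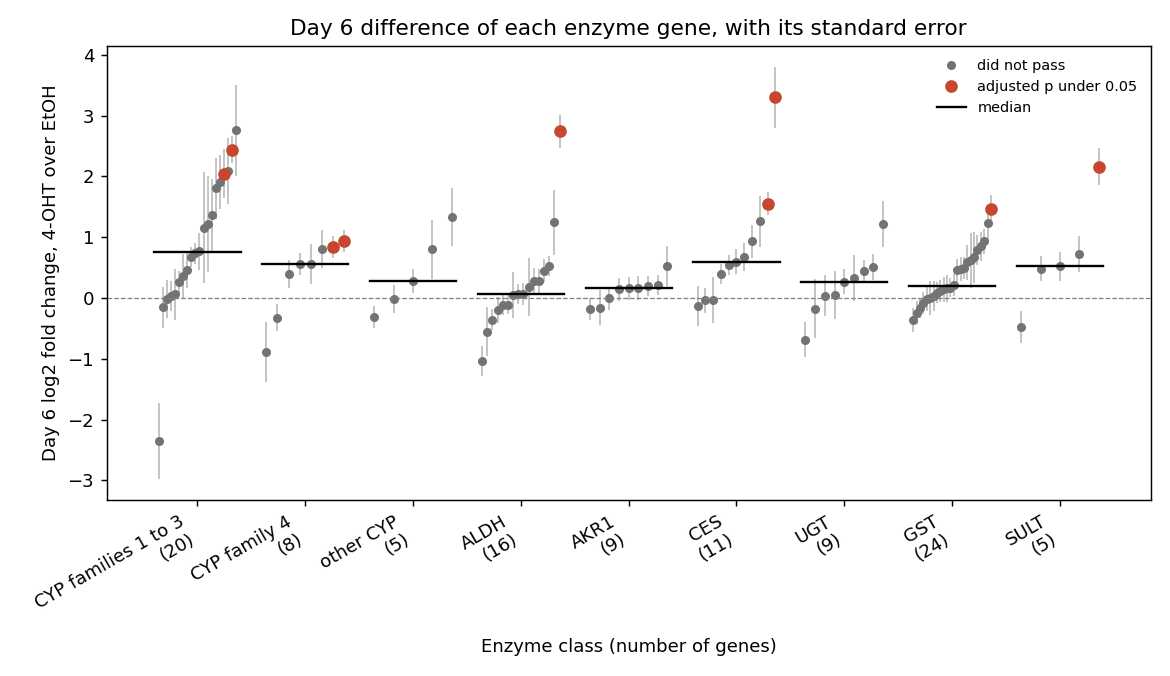
Day 6 log2 fold change of each member (y axis, 4-OHT over EtOH, 2 libraries each) by enzyme class (x axis), with 1 point per gene, its standard error as a vertical line, red where the adjusted p was under 0.05, and a black bar at the class median. The 9 red points all lie above 0, and the class medians run from 0.06 (ALDH) to 0.75 (CYP families 1 to 3).

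Over both days, in a fit of all 6 libraries that carried a day term, 18 members were called in the same test, 16 higher and 2 lower, where 4.39% of 14060 genes were called (3.67% higher and 0.718% lower). They included all 9 of day 6, whose libraries this comparison shares. Added as higher were Cyp2d34, Cyp2d10, Cyp2d22, Cyp2d26, Gstm1, Gsta1 and Gstm4, and added as lower were Aldh1a7 and Cyp2w1. Each of these 9 added calls was lost when any 1 of 2 to 5 of the 6 libraries was left out, as given with each gene. Of the 9 shared with day 6, Ces2c and Cyp4f16 each lost the call over both days in 4 such fits (adjusted p up to 0.13 and 0.18) and Cyp4f14 in 2 (0.077 and 0.10). For Ces2c and Cyp4f16 these were the fits without any 1 library of day 6, and for Cyp4f14 those without a 4-OHT library of day 6. The median log2 fold change was 0.19 beside −0.01 over all genes. Without the 4 genes that the 4-OHT libraries alone carried past the line, 15 of 103 were called. An unadjusted p under 0.05 was reached by 44 members, against 16.1% of all genes. All 3 libraries labelled 4-OHT lay above all 3 EtOH libraries for 27 members (25.2%) and below them for 8 (7.48%), where 11.7% and 9.25% of genes at 1 CPM or more did so. Without those 4 genes they lay above for 23 of 103 (22.3%) and below for 8 (7.77%). An unadjusted p under 0.05 was then reached by 40.

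**Figure D2:**
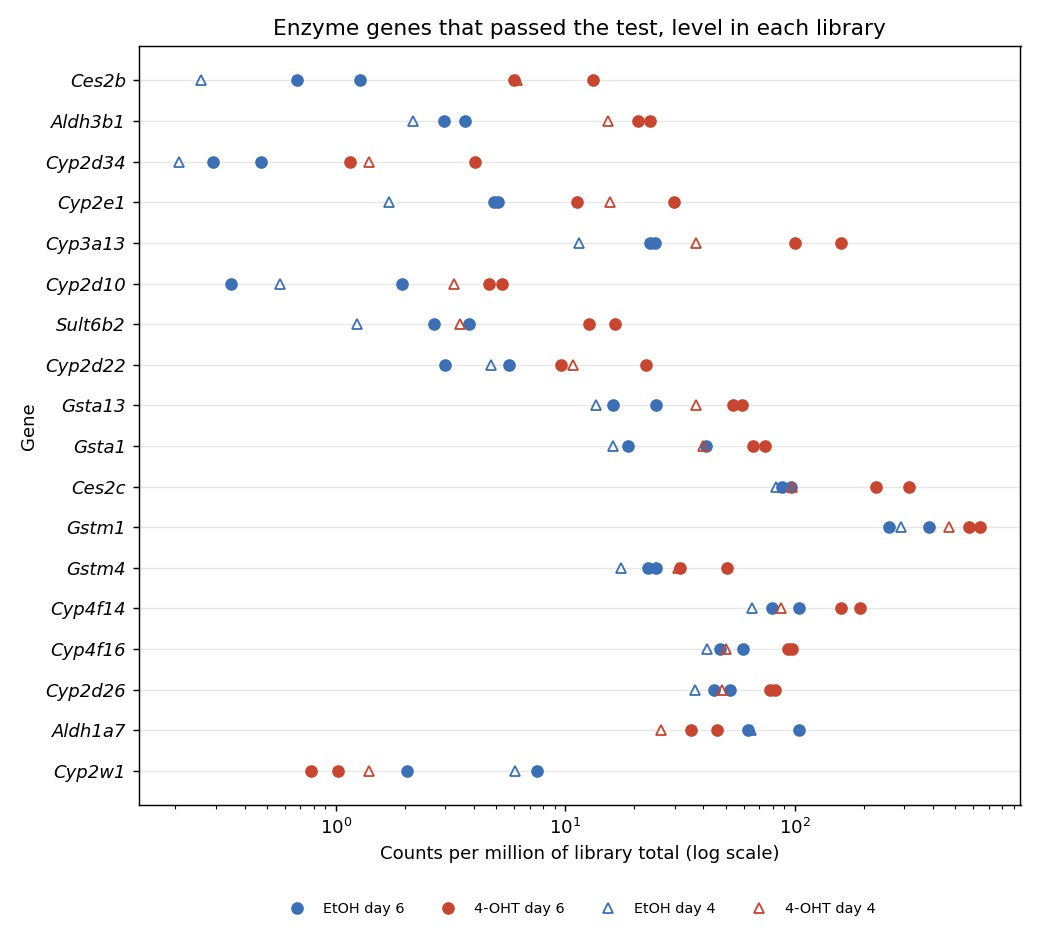
Level in CPM (log scale) of the 18 members called in either treatment comparison, in each of the 6 libraries (blue EtOH, red 4-OHT, filled circles day 6, open triangles day 4). Within each day the red points lie above the blue ones for 16 genes and below them for Aldh1a7 and Cyp2w1.

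The CYP enzymes of families 1 to 3 are heme monooxygenases that oxidise most drugs. Of 20 members, 2 were called at day 6 and 17 had a log2 fold change above 0, with a class median of 0.75. Cyp3a13, of the subfamily that oxidises many drugs and steroids, lies on chromosome 5 at 137891193 to 137919882 (minus strand, GRCm39). It was at 24.6 and 23.4 CPM in the EtOH libraries of day 6, 159 and 101 CPM in the 4-OHT libraries, and 11.5 (EtOH) and 37.2 CPM (4-OHT) at day 4. All 3 libraries labelled 4-OHT lay above all 3 labelled EtOH. At day 6 its log2 fold change came to 2.44 (SE 0.22, edgeR adjusted p 5.6e-04). Of its exon bases, 21.3% overlap the predicted gene Gm36551.

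Cyp2e1, which oxidises ethanol and other small molecules, was at 5.07 and 4.88 CPM with EtOH and 29.8 and 11.3 CPM with 4-OHT at day 6, and at 1.70 and 15.7 CPM at day 4. The groups did not overlap, but the 4-OHT replicates differed among themselves by more than the EtOH replicates. Its day 6 log2 fold change was 2.05 (SE 0.41, edgeR adjusted p 0.030). It rested on single libraries: the adjusted p was 0.12 without 4-OHT replicate 1, where the log2 fold change dropped to 1.21, and 0.27 and 0.15 without EtOH replicates 1 and 2.

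Cyp2d enzymes oxidise many amine-containing drugs. All 4 Cyp2d members were called as higher over both days by edgeR, where 3.67% of all genes were. At day 6 edgeR called 0 of the 4 (4 at an unadjusted p under 0.05), DESeq2 4 and limma-voom 0. Over both days DESeq2 called 4 and limma-voom 2, and Cyp2d10 and Cyp2d34 had passed the membership line only through the 4-OHT libraries. Cyp2d26, the most abundant of them per length at 27.0 CPM per kilobase of exon, was at 52.1 and 44.3 CPM (EtOH) and 77.9 and 81.9 CPM (4-OHT) at day 6, and at 36.9 and 48.2 CPM at day 4. Its log2 fold change over both days was 0.61 (SE 0.13, adjusted p 0.029). The day 4 library labelled 4-OHT lay among the EtOH libraries of day 6.

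Cyp2d22 was at 2.98 and 5.70 CPM with EtOH and 9.60 and 22.5 CPM with 4-OHT at day 6, and its log2 fold change over both days was 1.67 (SE 0.37, edgeR adjusted p 0.034). Cyp2d10 and Cyp2d34 gave 2.18 (SE 0.44) and 2.75 (SE 0.63), with adjusted p of 0.021 and 0.039, from EtOH levels of at most 1.93 CPM. Each of these 4 calls was lost when single libraries were left out. For Cyp2d26 the adjusted p was 0.057 to 0.14 without any 1 of 5 libraries (all but EtOH replicate 1 of day 6), and for Cyp2d34 it was 0.098 to 0.15 without any 1 of 5 (all but 4-OHT replicate 2 of day 6). For Cyp2d10 it was 0.062 to 0.087 without either 4-OHT library of day 6 or either library of day 4, and for Cyp2d22 0.0503 to 0.112 without EtOH replicate 1 or 4-OHT replicate 2 of day 6 or the EtOH library of day 4. Cyp2d10 shares 14.4% of its 50-base windows with other genes, mostly Cyp2d11.

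Cyp2w1 fell over both days: it was at 2.04 and 7.50 CPM (EtOH) against 1.03 and 0.783 CPM (4-OHT) at day 6, and at 6.04 against 1.39 CPM at day 4. All 4-OHT libraries lay below all EtOH libraries, and the log2 fold change over both days was −2.28 (SE 0.49, edgeR adjusted p 0.031). The adjusted p was 0.086 to 0.11 without either 4-OHT library of day 6 or either library of day 4. The EtOH replicates of day 6 differed from each other by more than the 4-OHT replicates did.

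Cyp2s1, the most abundant member of these families in CPM, was at 194 and 203 CPM (EtOH) and 197 and 274 CPM (4-OHT) at day 6, and at 207 and 197 CPM at day 4. Its groups overlapped, and its day 6 log2 fold change was 0.26 (SE 0.19, edgeR adjusted p 0.76).

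Cyp2b10 and Cyp2c29, classical targets of the drug-sensing receptors in liver, differed more between replicates than between treatment means at day 6. Cyp2b10 was at 18.7 and 1.28 CPM with EtOH and 39.7 and 5.58 CPM with 4-OHT at day 6, and at 1.55 and 3.28 CPM at day 4. Replicate 1 was 14.6-fold above replicate 2 with EtOH and 7.10-fold above it with 4-OHT, so the treatment groups overlapped, and its day 6 log2 fold change was 1.16 (SE 0.92, edgeR adjusted p 0.79). Cyp2c29 gave 11.1 and 1.22 CPM (EtOH) and 24.2 and 4.85 CPM (4-OHT) at day 6, with a log2 fold change of 1.22 (SE 0.79, adjusted p 0.71). At day 4 it was at 0.103 CPM (EtOH) and 2.72 CPM (4-OHT), a wider ratio than that between the day 6 replicates of either label.

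Replicate 1 exceeded replicate 2 under both treatments for all 10 members of Cyp2b, Cyp2c and Cyp3a, by over 2-fold under both for 5 of them. Of all genes at 1 CPM or more, 29.4% showed the former and 0.433% the latter. This grouping was chosen after its values were seen, and whether a replicate number marks a shared culture was not given in the sources used here. Of the 6 Cyp2c members, 0 were called by edgeR, DESeq2 or limma-voom at day 6, with 1 at an unadjusted p under 0.05 in edgeR, and the treatment groups of all 6 overlapped. Paneth cell markers also differed between replicates. Their summed level was 2763 and 2018 CPM in the EtOH libraries and 4912 and 1962 CPM in the 4-OHT libraries of day 6. Enteroendocrine markers were at 355 and 293 CPM (EtOH) and 591 and 294 CPM (4-OHT), and tuft cell markers at 31.3 and 19.1 CPM and 9.88 and 8.09 CPM. Stem cell marker sums kept this order under both labels, and goblet cell and enterocyte sums did not. The part of these cell types in the spread was not tested.

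Cyp3a11, a target of the xenobiotic receptor PXR (Nr1i2), was at 6.22 and 2.04 CPM (EtOH) and 20.4 and 8.76 CPM (4-OHT) at day 6. Both 4-OHT libraries lay above both EtOH libraries, yet the edgeR adjusted p was 0.12 at day 6 (log2 fold change 1.80, SE 0.50) and 0.053 over both days. Over both days it was 0.024 without EtOH replicate 1 of day 6 and 0.027 without 4-OHT replicate 2. Cyp3a25 gave 6.12 and 4.36 CPM against 9.78 and 8.03 CPM, with a log2 fold change of 0.77 (SE 0.30, adjusted p 0.38). Cyp1a1, Cyp1a2 and Cyp1b1, the classical targets of the aryl hydrocarbon receptor Ahr, did not reach the membership line and peaked at 0.280, 0.186 and 0.103 CPM in any library.

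**Figure D3:**
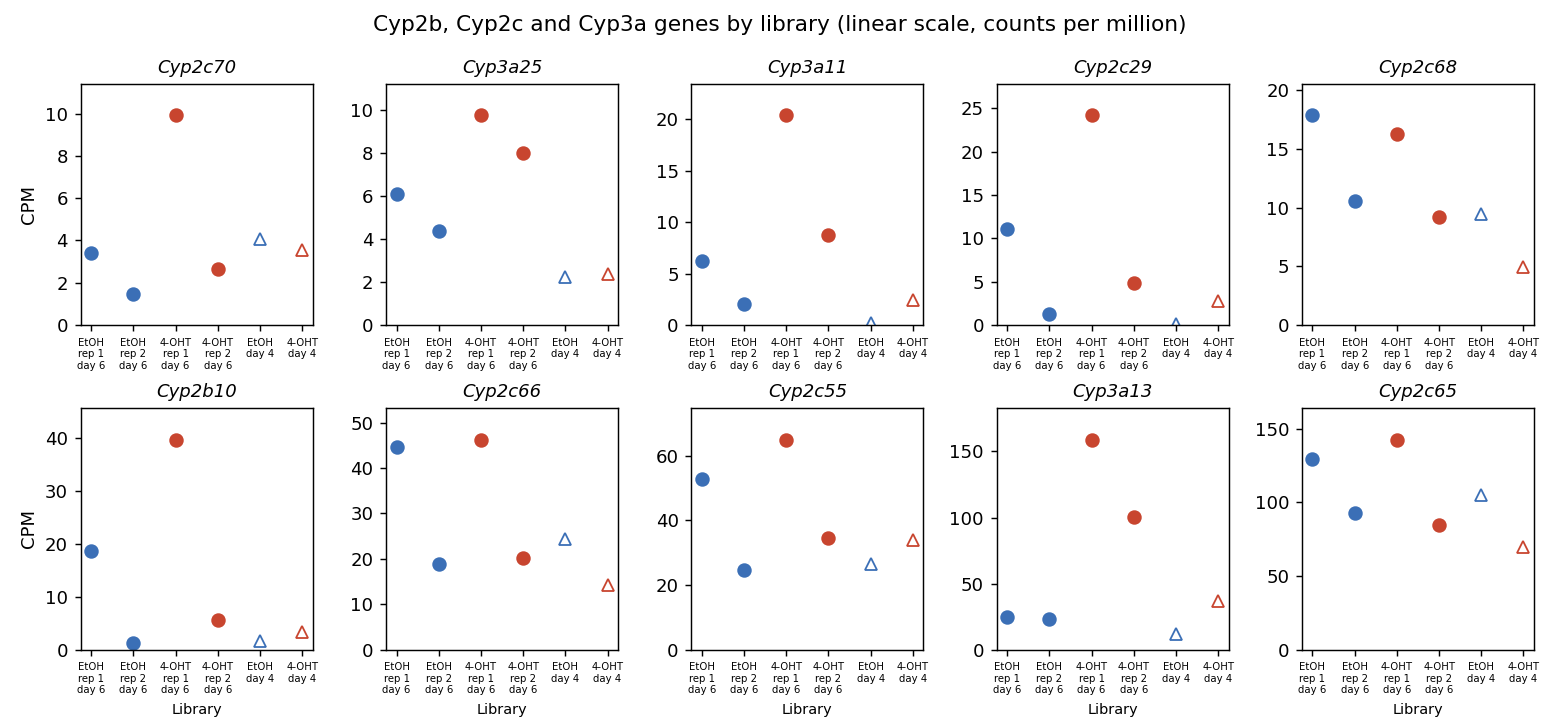
Level in CPM (y axis, linear, each panel with its own scale) of the 10 Cyp2b, Cyp2c and Cyp3a members in each library (x axis), EtOH in blue, 4-OHT in red, circles for day 6 and triangles for day 4. Cyp2b10 and Cyp2c29 are high in replicate 1 of either treatment at day 6 (18.7 and 11.1 CPM with EtOH) and low in replicate 2 (1.28 and 1.22 CPM), while Cyp3a13 is high in both 4-OHT replicates.

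To show what the upstream regions of CYP members hold, RefSeq promoter windows (GRCm38.p6) of 300 bases, 250 before the annotated start and 50 from it on, were searched, and 88 of the 107 members matched an entry. The letters CAAAGTNCA, an element bound by Hnf4, were searched on both strands and occurred in the windows of 6 members, which is 6.82% of those matched and 1.64% of all genes in the table. The 6 were Cyp2c65, Cyp2c68, Cyp2c70, Cyp2d26, Cyp3a11 and Sult1b1, and in Sult1b1 the match begins 25 bases after the start. The letters TNGCGTG, an element bound by Ahr with Arnt, occurred in 6 members (6.82%) and 5.84% of all genes. The 250 bases before the start are printed for 4 members with the Hnf4 letters, with the match in capitals, each written 5′ to 3′ on the strand of the gene.
Cyp3a11, chr5:145879855-145880104, minus strand: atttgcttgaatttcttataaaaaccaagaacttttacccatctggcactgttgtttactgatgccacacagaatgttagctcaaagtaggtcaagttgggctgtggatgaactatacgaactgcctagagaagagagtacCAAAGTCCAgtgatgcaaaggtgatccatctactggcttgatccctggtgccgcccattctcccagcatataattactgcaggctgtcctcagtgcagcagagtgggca
Cyp2d26, chr15:82794246-82794495, minus strand: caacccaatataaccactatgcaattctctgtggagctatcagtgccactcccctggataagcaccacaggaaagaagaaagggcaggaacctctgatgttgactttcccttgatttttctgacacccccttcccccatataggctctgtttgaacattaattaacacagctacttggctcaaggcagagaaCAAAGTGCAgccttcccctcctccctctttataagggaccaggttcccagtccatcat
Cyp2c65, chr19:39060756-39061005, plus strand: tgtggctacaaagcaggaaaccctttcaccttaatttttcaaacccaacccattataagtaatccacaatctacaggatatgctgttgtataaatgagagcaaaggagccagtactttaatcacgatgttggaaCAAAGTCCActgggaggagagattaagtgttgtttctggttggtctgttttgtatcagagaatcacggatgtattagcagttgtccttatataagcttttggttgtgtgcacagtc
Cyp2c68, chr19:39741102-39741351, minus strand: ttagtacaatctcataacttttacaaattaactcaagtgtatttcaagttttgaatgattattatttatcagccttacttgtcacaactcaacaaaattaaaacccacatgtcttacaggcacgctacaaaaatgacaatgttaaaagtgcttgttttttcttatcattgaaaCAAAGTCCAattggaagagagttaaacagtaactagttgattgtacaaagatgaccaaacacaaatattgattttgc
The match begins 109 bases before the start in Cyp3a11, 58 in Cyp2d26, 116 in Cyp2c65 and 77 in Cyp2c68. Over both days the log2 fold change was 0.61 for Cyp2d26, which was called, and 1.98 (SE 0.49) for Cyp3a11, which was not. Cyp2c65 and Cyp2c68 had −0.18 (SE 0.21) and −0.37 (SE 0.29) over both days, and neither was called. Their day 6 log2 fold changes were 0.03 (SE 0.25) and −0.16 (SE 0.34). That of Cyp2d26 was 0.735 (SE 0.17), which was not called at day 6 (edgeR adjusted p 0.063). Differences between these genes were not tested. Hnf4a itself was at 969 to 1057 CPM in all 6 libraries, with a day 6 log2 fold change of 0.01 (edgeR adjusted p 0.99).

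CYP family 4 enzymes hydroxylate the end carbon of fatty acids and eicosanoids, and 2 of 8 members were called at day 6, with a class median log2 fold change of 0.56. Cyp4f14, known for leukotriene B4 hydroxylation, was at 104 and 79.7 CPM with EtOH and 192 and 159 CPM with 4-OHT at day 6, and at 65.3 and 86.8 CPM at day 4. The day 6 groups were apart, and the log2 fold change was 0.94 (SE 0.19, edgeR adjusted p 0.029). Cyp4f16, of the same gene cluster on chromosome 17, gave 59.5 and 47.2 CPM against 93.7 and 97.3 CPM, with 0.85 (SE 0.18, adjusted p 0.039).

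Both family 4 calls moved across the threshold when a library was left out. Leaving out 4-OHT replicate 1 gave Cyp4f14 an adjusted p of 0.12, leaving out EtOH replicate 2 gave 0.074, and for Cyp4f16 it was 0.073 without EtOH replicate 2, 0.083 without 4-OHT replicate 1 and 0.18 without 4-OHT replicate 2. Cyp4f40 went the other way, at 30.4 and 28.3 CPM (EtOH) and 19.6 and 27.0 CPM (4-OHT), but its log2 fold change of −0.32 (SE 0.22) was not called. The promoter window of Cyp4f14 holds the antioxidant response element letters TGACNNNGC, as do those of 9 members in all (10.2% of members matched, 14.0% of all genes; in Cyp2j6, Akr1c19 and Cyp2c66 the match begins after the start), shown here because Cyp4f14 is the called member with such a match. The 250 bases before its start are printed.
Cyp4f14, chr17:32917088-32917337, minus strand: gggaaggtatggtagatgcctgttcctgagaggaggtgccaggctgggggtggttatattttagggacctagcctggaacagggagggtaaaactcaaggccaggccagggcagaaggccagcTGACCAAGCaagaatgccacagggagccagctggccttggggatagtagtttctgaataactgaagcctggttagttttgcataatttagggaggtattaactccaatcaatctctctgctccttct

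Among the 5 remaining CYP members, several of which act on sterols and retinoids, edgeR called 0 at day 6 (1 at an unadjusted p under 0.05), as did DESeq2 and limma-voom. Cyp51, the demethylase of cholesterol synthesis, was at 477 and 391 CPM (EtOH) and 365 and 331 CPM (4-OHT) at day 6, and at 372 and 310 CPM at day 4, with 4-OHT libraries below EtOH libraries throughout. Its day 6 log2 fold change was −0.31 (SE 0.17, edgeR adjusted p 0.62), and 28.3% of its exon bases overlap other genes. Cyp27a1, a sterol hydroxylase of bile acid synthesis, had a log2 fold change of 1.34 (SE 0.48, adjusted p 0.29), and 32.8% of its exon bases overlap Prkag3.

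Aldehyde dehydrogenases oxidise aldehydes to acids, and 1 of 16 members was called at day 6 (6.25%, beside 2.51% of all genes). The class median was 0.06. Aldh3b1, which acts on lipid-derived aldehydes, was at 3.66 and 2.97 CPM with EtOH and 20.7 and 23.5 CPM with 4-OHT at day 6, and at 2.17 and 15.4 CPM at day 4. The lowest 4-OHT library lay well above the highest EtOH library. The means at day 6 were 3.31 ± 0.491 and 22.1 ± 1.94 CPM (SD, n = 2 each), and the log2 fold change was 2.74 (SE 0.27, edgeR adjusted p 8.5e-04). The gene lies on chromosome 19 at 3963488 to 3979808, and 13.7% of its exon bases overlap Gm42059.

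Aldh1a7 fell over both days, and it shares 91.6% of its aligned coding bases with Aldh1a1, which was not called. Aldh1a7 was at 104 and 62.7 CPM (EtOH) and 45.6 and 35.3 CPM (4-OHT) at day 6, and at 64.4 and 26.1 CPM at day 4, so all 4-OHT libraries were below all EtOH libraries. Its log2 fold change over both days was −1.13 (SE 0.19, edgeR adjusted p 0.0095), and −1.04 (SE 0.25, adjusted p 0.063) at day 6. The adjusted p over both days became 0.054 to 0.059 without 4-OHT replicate 2 of day 6 or either library of day 4.

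Aldh1a1, which makes retinoic acid from retinaldehyde, was at 88.0 and 35.0 CPM (EtOH) and 82.7 and 44.8 CPM (4-OHT), with a day 6 log2 fold change of 0.05 (SE 0.38). Only 3.27% of its 50-base windows occur in other genes, so few reads could be shared with Aldh1a7. The difference between both genes was not tested. Aldh1a3, of the same retinoid step, was near the membership line at 0.680 and 1.05 CPM (EtOH) and 2.61 and 1.41 CPM (4-OHT).

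The abundant aldehyde dehydrogenases were not called. Aldh1b1, a mitochondrial enzyme and the highest member per length at 573 CPM per kilobase, was at 1344 and 1179 CPM with EtOH and 1446 and 1602 CPM with 4-OHT at day 6, and at 1313 and 1483 CPM at day 4. Although its 4-OHT libraries lay above the EtOH libraries, the log2 fold change was 0.28 (SE 0.20, edgeR adjusted p 0.75). Aldh18a1, an enzyme of proline synthesis, had a log2 fold change of 0.06 (SE 0.18).

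The AKR1 enzymes reduce aldehydes and ketones, including steroids, and 0 of 9 members were called by edgeR at day 6, with 0 at an unadjusted p under 0.05. DESeq2 and limma-voom also called 0. Akr1a1, the general aldehyde reductase, was at 614 and 523 CPM (EtOH) and 473 and 521 CPM (4-OHT), with a log2 fold change of −0.19 (SE 0.18). Akr1c13 gave 141 and 123 CPM against 143 and 161 CPM, with 0.21 (SE 0.17), and shares 96.2% of its aligned coding bases with Akr1c12, whose log2 fold change was 0.20 (SE 0.17).

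Carboxylesterases cleave ester and amide drugs, and those of the Ces2 group are the main forms of the intestine. All 5 Ces2 members had higher 4-OHT levels in both libraries of day 6 than in both EtOH libraries, as did 19.4% of all genes at 1 CPM or more. Of the 5, 2 were called, Ces2b and Ces2c (40.0%, beside 2.51% of all genes). The 4-OHT libraries alone carried Ces2b past the membership line, so it had to be higher there. Ces2c (chromosome 8, 105573700 to 105581115) was at 88.3 and 96.8 CPM with EtOH and 314 and 227 CPM with 4-OHT at day 6, and at 82.6 and 97.3 CPM at day 4. The day 6 groups were far apart, while the day 4 libraries were close to the EtOH level of day 6. The day 6 log2 fold change was 1.55 (SE 0.18, edgeR adjusted p 0.0021). Ces2c shares 69.6% of its 50-base windows with other genes, mostly Gm64957, and 29.0% of its exon bases overlap another gene, so its level is uncertain.

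Ces2b was low with EtOH, at 0.680 and 1.28 CPM, and at 13.2 and 5.95 CPM with 4-OHT at day 6. At day 4, 5 counts with EtOH stood against 88 with 4-OHT, a 23.8-fold ratio (exact 95% interval 9.80 to 75.0, for counting error alone). The day 6 log2 fold change was 3.30 (SE 0.50, edgeR adjusted p 0.0071), and the adjusted p became 0.15 and 0.060 without EtOH replicates 1 and 2. Ces2a, Ces2e and Ces2g had day 6 log2 fold changes of 0.67, 0.39 and 0.60, and none of these was called. Among the 6 Ces1 members, Ces1g gave 6.85 and 4.83 CPM against 20.3 and 7.72 CPM, with 1.26 (SE 0.42, adjusted p 0.23), and 3 were above 0 and 3 below.

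Glutathione S-transferases conjugate glutathione to electrophiles, and 1 of 24 members was called at day 6 (4.17%), near the 2.51% of all genes. Over both days 4 were called (16.7%, beside 4.39% of all genes). At day 6, 18 were above 0 (75.0%, beside 48.2% of all genes). Gsta1 and Gsta13 are near-identical copies side by side on chromosome 9, and capitals mark the single base at which the first stretch of their coding sequences differs (GRCm39 annotation).
Gsta1 coding bases 1 to 60: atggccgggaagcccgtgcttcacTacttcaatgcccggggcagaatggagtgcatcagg
Gsta13 coding bases 1 to 60: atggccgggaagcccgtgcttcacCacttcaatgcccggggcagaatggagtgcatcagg
Their coding sequences of 669 bases differ at 2 positions, T25C and C591T, counted from 1 at the start codon with the Gsta1 base first. Of their 50-base windows, 91.2% (Gsta1) and 94.2% (Gsta13) occur in another gene, so reads between the copies can be dropped or misplaced, and the copies are best read as 1 uncertain signal.

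Gsta13 was at 24.9 and 16.1 CPM with EtOH and 58.6 and 53.8 CPM with 4-OHT at day 6, and at 13.6 and 37.2 CPM at day 4. No EtOH library reached a 4-OHT library, and the day 6 log2 fold change was 1.46 (SE 0.23, edgeR adjusted p 0.0090). Gsta1 gave 40.9 and 18.8 CPM against 74.6 and 65.6 CPM, with 1.23 (SE 0.30, adjusted p 0.077) at day 6 and 1.25 (SE 0.24, adjusted p 0.017) over both days. The latter became 0.055 to 0.070 without either 4-OHT library of day 6 or either library of day 4. Gsta2, which shares 98.0% of the aligned coding bases with Gsta1, was at 12.8 and 8.78 CPM (EtOH) and 10.8 and 10.7 CPM (4-OHT).

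Of the 8 Gstm members, 7 were above 0 at day 6 and 2 were called over both days. Gstm1, at 174 CPM per kilobase, was at 384 and 258 CPM (EtOH) and 645 and 576 CPM (4-OHT) at day 6, and at 292 and 472 CPM at day 4. All 4-OHT libraries lay above all EtOH libraries, and the log2 fold change over both days was 0.85 (SE 0.16, edgeR adjusted p 0.014), becoming 0.062 and 0.055 without 4-OHT replicates 1 and 2 of day 6. Gstm4 gave 0.80 (SE 0.19, adjusted p 0.042) over both days, which became 0.077 to 0.19 without any 1 of 5 libraries (all but 4-OHT replicate 1 of day 6). Gstm3 was at 288 and 166 CPM against 405 and 411 CPM, with 0.72 over both days and an adjusted p of 0.072.

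Gstp1, the highest glutathione transferase per length at 309 CPM per kilobase, was not called. It was at 486 and 471 CPM (EtOH) and 453 and 573 CPM (4-OHT) at day 6, and at 523 and 517 CPM at day 4, with overlapping groups and a log2 fold change of 0.11 (SE 0.18, edgeR adjusted p 0.93). Its copy Gstp2 differs from it at 12 of 630 coding bases, 6 of them within the stretch shown, where capitals mark the differing bases. Gstp2 was at 46.3 and 51.2 CPM against 62.0 and 74.3 CPM, with 0.49 (SE 0.18, adjusted p 0.31).
Gstp1 coding bases 1 to 60: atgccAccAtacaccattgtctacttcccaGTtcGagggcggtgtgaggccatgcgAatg
Gstp2 coding bases 1 to 60: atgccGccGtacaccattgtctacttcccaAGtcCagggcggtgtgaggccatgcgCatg
The windows shared with other genes were 56.3% for Gstp1 and 59.9% for Gstp2.

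Sulfotransferases transfer sulfate to hydroxyl groups, and 1 of 5 members, Sult6b2, was called at day 6 (20.0%, beside 2.51% of all genes). It was at 3.82 and 2.67 CPM with EtOH and 16.4 and 12.7 CPM with 4-OHT at day 6, and at 1.24 and 3.49 CPM at day 4. The day 6 groups were apart, while the day 4 library labelled 4-OHT lay between the EtOH libraries of day 6. The log2 fold change was 2.16 (SE 0.31, edgeR adjusted p 0.0053), and 11.6% of its exon bases overlap Gm46981. Sult1d1, the most abundant member of the class in CPM, gave 48.4 and 43.7 CPM against 84.4 and 47.3 CPM, with 0.52 (SE 0.24, adjusted p 0.53).

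UDP-glucuronosyltransferases attach glucuronic acid, and 0 of 9 members were called by edgeR in either treatment comparison, with 4 at an unadjusted p under 0.05 at day 6, where DESeq2 and limma-voom called 0. Over both days DESeq2 called 1. Ugt2b34 was at 332 and 505 CPM (EtOH) and 539 and 646 CPM (4-OHT) at day 6, and at 450 and 488 CPM at day 4, with a log2 fold change of 0.51 (SE 0.22, adjusted p 0.44). Ugt2b35 was at 92.6 and 137 CPM (EtOH) and 122 and 152 CPM (4-OHT) at day 6, with overlapping groups and a log2 fold change of 0.27 (SE 0.21, adjusted p 0.78). Ugt2b36 was lower in all 4-OHT libraries, at 7.16 and 7.56 CPM against 4.52 and 4.59 CPM at day 6, with −0.68 (SE 0.29, adjusted p 0.44). The 4 Ugt1 members are transcripts of 1 locus that share their last exons, and 71.3% to 100% of their windows occur in another gene, so their separate levels are uncertain.

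**Figure D4:**
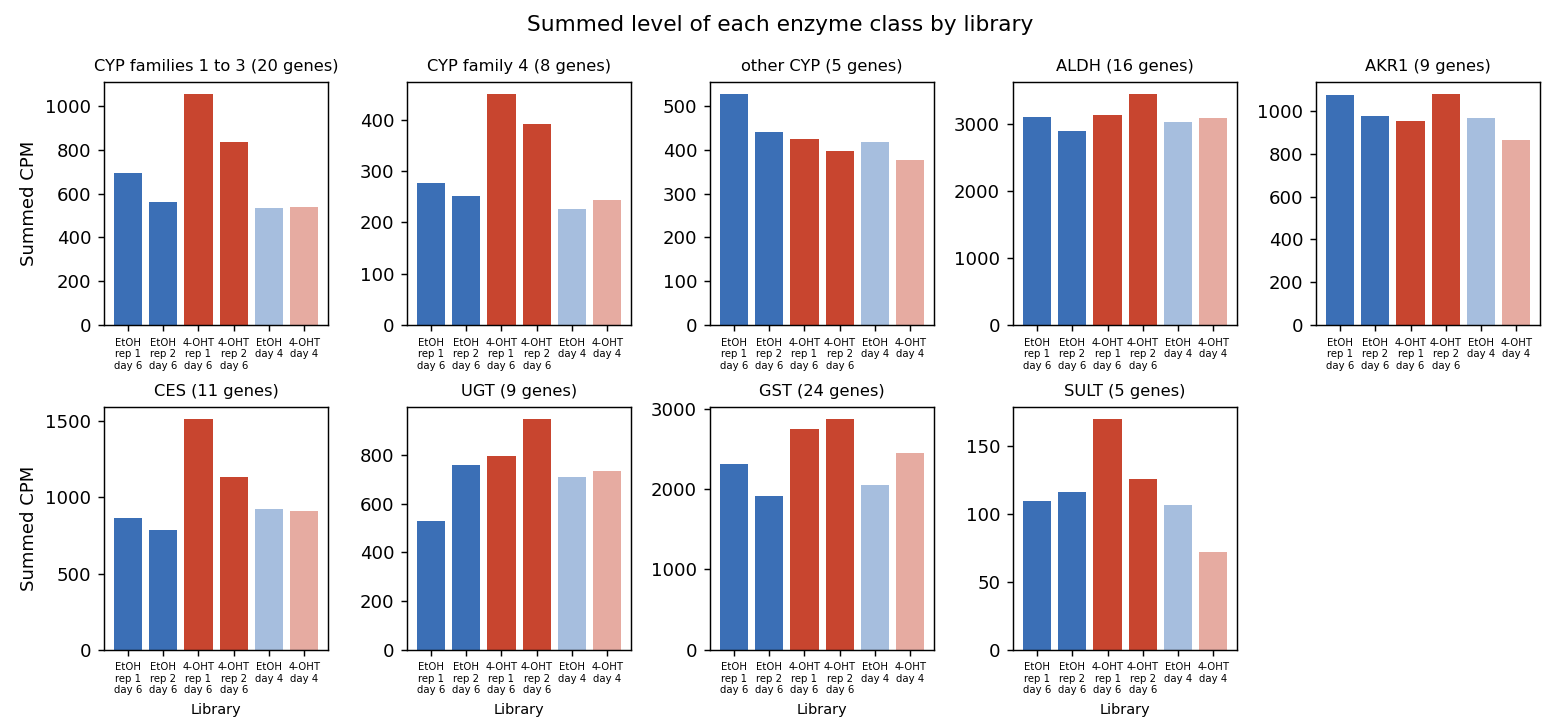
Summed CPM of the members of each enzyme class (bars, y axis from 0 with its own scale in each panel) in each library (x axis), EtOH in blue and 4-OHT in red, paler at day 4. For CES the sums are 866 and 788 CPM (EtOH) and 1518 and 1132 CPM (4-OHT) at day 6, and for AKR1 they are 1076 and 978 CPM against 956 and 1080 CPM.

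At day 4, with 1 library per label and hence no test, members moved in both directions. A change of at least 2-fold was found for 25 members, 17 higher and 8 lower in the library labelled 4-OHT, where 5.99% of 12710 genes at 1 CPM or more passed this line, 4.64% higher and 1.35% lower. The median log2 ratio was 0.05, beside −0.01 over those genes, and 59 members were above 0. Without the 4 genes that the 4-OHT libraries alone carried past the membership line, 13 of 103 were at least 2-fold higher and 8 lower. The median of the 103 was 0.04. The higher ones included Cyp2e1 (33 counts with EtOH against 225, 9.20-fold, exact 95% interval 6.37 to 13.7), Cyp2c29 (2 against 39 counts, 26.3, interval 6.81 to 225) and Cyp3a11 (3 against 35 counts, 15.7, interval 4.96 to 80.0). These intervals cover counting error alone. The lower ones were Akr1c14, Cyp2u1, Ces1b, Ugt1a9, Sult1c2, Ugt2b36, Aldh1a7 and Cyp2w1.

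Values at both days had the same sign for 71 members, and 28 were above 0 at day 6 and below 0 at day 4. The test of the difference between the days itself called 0 members in edgeR, in DESeq2 and in limma-voom, where edgeR called 0.0% of all genes. Day 4 has 1 library per label, so the spread in this test came from the day 6 replicates alone. A difference between the days can thus be missed. At an unadjusted p under 0.05 edgeR had 8 members, against 1.62% of all genes. They included the carboxylesterases Ces1f, with a difference of 1.27 log2 units, Ces2c with 1.35 and Ces2a with 1.56. Ces2a was at 206 CPM (EtOH) and 114 CPM (4-OHT) at day 4 and at 198 and 150 CPM against 343 and 212 CPM at day 6, and after adjustment none of these differences passed.

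**Figure D5:**
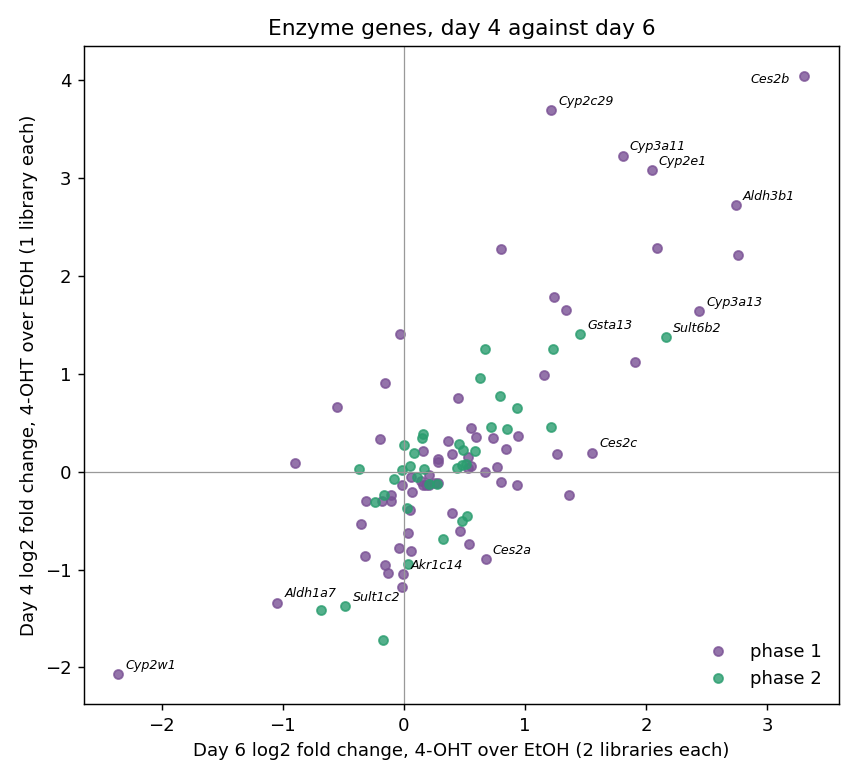
Log2 fold change of 4-OHT over EtOH at day 4 (y axis, 1 library each) against day 6 (x axis, 2 libraries each), 1 point per member, purple for phase 1 and green for phase 2, with some genes of the text named. Aldh3b1 is near the same value at both days (2.73 and 2.74), while Ces2c is at 0.19 at day 4 and 1.55 at day 6.

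Across both labels, day 6 libraries differed from day 4 libraries for 2 members in the edgeR test, both higher at day 6, where 0.562% of genes were called and 0.327% were called higher. An unadjusted p under 0.05 was reached by 30 members, against 12.6% of all genes. The log2 difference was above 0 for 86 members (80.4%, beside 54.0% of all genes), with a median of 0.23 beside 0.02. Cyp3a13 had a log2 difference of 1.48 (adjusted p 0.027) and Sult6b2 of 1.86 (adjusted p 0.039). Leaving out the 4-OHT library of day 4 left 0 calls, and leaving out EtOH replicate 2 of day 6 gave 17. Whether libraries of the days were prepared together was not given in the sources used here, so day and preparation cannot be told apart. Reads assigned to no gene were 2.63% to 3.76% at day 6 and 6.19% and 6.70% at day 4.

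Other genes of the pathway were read from lists chosen with earlier results known. Over all genes tested at day 6, edgeR called 2.51%, with 2.27% called as higher. Of 21 other phase 1 genes tested at day 6, 4 rose in the edgeR test: Fmo5, a flavin monooxygenase (log2 fold change 1.33, adjusted p 0.0055), Ephx2, the soluble epoxide hydrolase (1.40, 0.0041), Maoa, a monoamine oxidase (0.87, 0.021), and Xdh, the xanthine dehydrogenase (1.60, 0.0074). Por, the electron donor of microsomal CYP enzymes, was at 315 and 289 CPM (EtOH) and 269 and 336 CPM (4-OHT) and was not called. Of 16 other phase 2 genes tested, Papss2, which makes the sulfate donor, was called (1.23, adjusted p 0.014). Of 15 transporters, the organic cation exporter Slc47a1 (3.65, adjusted p 0.035) and the peptide carrier Slc15a1 (2.78, adjusted p 0.0074) were called at day 6. Over both days edgeR called 5 transporters as higher and 1 as lower, where 3.67% and 0.718% of all genes were. Slc47a1 had 0 counts in at least 1 library, so the size of its fold change is uncertain.

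Of 19 receptors and transcription factors of the pathway tested, edgeR called 0 at day 6 (4 at an unadjusted p under 0.05), DESeq2 1 and limma-voom 0. The list median was 0.25 beside −0.01 over all genes. Over both days edgeR called 1 of 20, near the 4.39% of all genes called there. This was Nfe2l2, the gene of the antioxidant factor Nrf2 (0.51, adjusted p 0.025). Ahr and Nr1i2 gave day 6 log2 fold changes of 0.12 and 0.18. Of 12 Nrf2 targets, 2 were called at day 6, Srxn1 (0.75, adjusted p 0.049) and Osgin1 (1.39, adjusted p 0.049), and the median was 0.12. Of 2 Ahr targets tested, 0 were called. The share over all genes tested at day 6 was 2.51%. Without EtOH replicate 1, 1 list gene in place of 9 was called at day 6.

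Markers of absorptive enterocytes, where many of these enzymes are best known, were also higher. Of 14 such markers, 9 were called as higher at day 6, where 2.27% of all genes were. A log2 fold change above 0 was found for 14 of 14, beside 48.2% of all genes. The median was 1.94, beside −0.01 over all genes. Their summed level was 2410 and 2610 CPM (EtOH) and 6146 and 4915 CPM (4-OHT) at day 6, and 2048 and 2804 CPM at day 4. The stem cell marker sum was 5150 to 6068 CPM over the EtOH libraries and 3723 to 4592 CPM over the 4-OHT libraries. Of 10 stem cell markers, 3 were above 0 at day 6 and 1 was called, Olfm4, as lower (log2 fold change −1.27, edgeR adjusted p 0.031). At day 6, 0.235% of all genes were called lower. Over both days 2 of the stem cell markers were called lower and Igfbp4 was called higher, where 0.718% and 3.67% of all genes were. The part of these shifts in the enzyme values was not tested.

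Near the membership line, Gsto2 (0.893 CPM), Cyp4f41-ps (0.827 CPM) and Ces2f (0.805 CPM) lay just outside, and Cyp2d34 (1.26 CPM), Ugt1a9 (1.31 CPM) and Aldh1a3 (1.32 CPM) just inside. Per length, the highest after Aldh1b1, Gstp1 and Gstm1 were Gstm3 (171 CPM per kilobase), Ces2e (146), Akr1a1 (130) and Ugt2b34 (114). More than 10% of 50-base windows were shared for 27 members and more than 50% for 10, and over 10% of exon bases overlapped another gene for 19. Among the 67 members at or under both 10% lines, 3 were called at day 6 (4.48%, beside 2.51% of all genes), all higher. The median log2 fold change of the 67 was 0.40. These 3 were Ces2b, Cyp2e1 and Cyp4f14, whose calls rested on single libraries, as given with each gene. The 4-OHT libraries alone carried Ces2b past the membership line. Aldh3b1, Cyp3a13, Sult6b2, Ces2c and Gsta13 lay outside this set.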

How the data were processed

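RNA sequencing read counts per gene of 6 libraries were analysed, grouped by the treatment and day in their labels. The authors deposited unscaled integer read counts for 56884 Ensembl identifiers; polyadenylated RNA was selected and primed with random hexamers, per the labels' protocols. STAR and the build mm39 are named in the submitters' processing notes; the annotation release and strand setting are not given in the sources used here. The 4 summary lines of each file stayed out of library sizes: unmapped reads were 5.01% to 10.3% of all entries, multimapping 4.65% to 5.77%, unassigned 2.63% to 6.70% and ambiguous 5.28% to 5.88%. Reads of near-identical or overlapping genes can fall in these lines, and those genes' counts are then too low.

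Symbols, positions, exon overlaps and shared 50-base windows came from GENCODE M39 (GRCm39), which matched 56323 identifiers. CPM are counts scaled to a library total of 1000000, with no TMM factor. Tests were run with edgeR 4.0.16 in R 4.3.3 by quasi-likelihood (legacy = FALSE, TMM scaling, filterByExpr with its minimum count of 10) with Benjamini-Hochberg adjustment over all genes. All 107 members passed the filters. Standard errors (SE) are |log2 fold change| / sqrt(F). At day 6, 4 libraries were fitted, and elsewhere all 6, with day and treatment as terms or as 4 groups. Log2 ratios of day 4 came from edgeR's log CPM (TMM, prior count 2), and no test was run. Replicates of a group differed by more than sampling noise (chi-square per degree of freedom 33.2 with EtOH and 22.9 with 4-OHT).

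Members, lists and tests were chosen with earlier results of these data known. Named genes were members called in either treatment comparison, the 2 highest in mean CPM of each family, the 3 largest day 4 changes at 5 CPM or more, called day differences, neighbours of the membership line and called list genes, at most 5 a list; others named were chosen after their values were seen. Alternatives were other scaling, filters, membership lines, DESeq2 1.42.0, limma-voom (limma 3.58.1), edgeR's earlier dispersion method, a block, no day term and each library left out. The procedure was tested on simulated data. Protein sequences and reads per exon were not analysed here.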

Additional observations from a re-analysis of the deposited data

How the results depend on the processing

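The count of 9 members called at day 6 was 8 to 11 with other scaling, filters, membership lines, limma-voom, the earlier dispersion method and 4 groups, 21 with DESeq2, and 6 to 21 with 1 library left out (21 without 4-OHT replicate 2). The lone library of an arm is then assumed to vary like the others. Aldh3b1, Cyp3a13, Sult6b2, Ces2c and Gsta13 passed in each of these settings. Over both days 18 became 6 with no day term and 8 to 17 with 1 library left out (8 without 4-OHT replicate 2 of day 6, 10 without the EtOH library of day 4, 11 without that of 4-OHT). For day 6 against day 4 the 2 calls became 4 with no filter, 11 with DESeq2, 1 with limma-voom, 1 with the earlier dispersion method and 0 to 17 with 1 library left out. The 9 called list genes became 1 to 9 with 1 library left out. The difference between days gave 0 members throughout, and the 25 members past 2-fold at day 4 became 22 to 30. Among the named genes' fold changes, 786 alternative values kept their call, 74 lost it, 50 gained it and 0 changed sign while called.

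The replicate numbers are shared between treatments only as numbers. Deviations of same-numbered day 6 libraries correlated with r = 0.22 across 14060 genes, which are not independent, in 2 pairs. With the replicate number as a block, 32 members (27 over both days) and 19 list genes were called at day 6, where 839 of 14066 genes were. Among the members the block added were Cyp2b10 (adjusted p 1.62e-05), Cyp2c29 (1.44e-04) and Cyp3a11 (4.71e-08), whose replicates differed the same way under both labels. Without the block their edgeR adjusted p at day 6 was 0.79, 0.71 and 0.12. The block spends a further term on only 4 libraries and pairs them by numbers that the labels do not link. Its p-values thus rest on a pairing that is not known to exist. The earlier dispersion method, the list alternatives and leaving out libraries in the test between days were chosen after seeing the data. At 1 CPM a value rests on 14.3 to 21.5 counts, and with 2 libraries a group at day 6 and 1 at day 4 a difference that was not called is not shown to be absent.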
